A study of Homo sapiens with 6 samples.

Results

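The genes described are 10 members of the Krüppel-like factor (KLF) family of transcription factors: KLF2, KLF3, KLF4, KLF5, KLF6, KLF7, KLF9, KLF10, KLF11 and KLF13. They were found by gene symbol among the 60027 gene rows of 1 deposited expression table, in which each symbol had 1 row. They are 10 of the 18 genes named KLF1 to KLF18, and they were chosen by their levels and fold changes between knockdown and control libraries in these same data. Their fold changes and calls are therefore a description, given without p-values. The cells were NCI-H292, an established human cell line derived from a pulmonary mucoepidermoid carcinoma. Libraries of polyadenylated RNA were made from 3 samples with a knockdown of the long noncoding RNA SH3PXD2A-AS1 and from 3 negative control samples, which the series text calls vector controls. The sources used here do not give the knockdown reagent or its delivery, nor whether clones or separate cultures were used. The spread between libraries of a group may thus be technical.

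KLF proteins bind DNA through zinc fingers of the C2H2 type near the carboxyl terminus. These fingers recognise GC boxes and CACCC boxes, and related fingers in the SP family recognise much the same sites. The parts of the protein outside the fingers set what each factor does. KLF1, KLF2, KLF4, KLF5, KLF6 and KLF7 mainly activate genes and can recruit histone acetyltransferases. KLF3, KLF8 and KLF12 repress through the corepressor CtBP, and KLF9, KLF10, KLF11, KLF13, KLF14 and KLF16 bind the corepressor SIN3A. In epithelia KLF4 is known for differentiation and withdrawal from the cell cycle, and KLF5 for growth of basal and crypt cells.

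Start regions of 8 of the 10 genes were matched by symbol in RefSeq windows of 300 bases on GRCh38.p14, running from 250 bases before to 50 bases after each start. No window of KLF3 or KLF10 was analysed here, so the window counts below leave both genes out. The 4 windows printed here are those of the members with the highest fold changes (KLF2 and KLF4), of the single member that stood lower in every knockdown library (KLF9), and of the window with most GC boxes (the second start of KLF11). Sequences run 5′ to 3′ on the gene's strand, and capitals mark the motifs searched, each on both strands and with overlaps allowed. A GC box is GGGCGG here. The CACCC box is named by its letters. The core site of a cAMP response element is TGACGT. MEF2 sites were searched too. Capitals would also mark an AP-1, TATA box (TATAAA), interferon response, NF-kB or CArG motif, none of which lay in these 4 windows.
KLF2 (chr19:16324576-16324875, plus strand): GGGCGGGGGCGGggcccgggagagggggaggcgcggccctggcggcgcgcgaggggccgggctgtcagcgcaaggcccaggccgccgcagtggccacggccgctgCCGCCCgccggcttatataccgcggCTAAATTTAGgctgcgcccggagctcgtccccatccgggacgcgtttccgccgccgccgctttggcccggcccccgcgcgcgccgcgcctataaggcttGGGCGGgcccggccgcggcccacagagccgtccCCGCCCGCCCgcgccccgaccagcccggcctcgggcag
KLF4 (chr9:107489720-107490019, minus strand): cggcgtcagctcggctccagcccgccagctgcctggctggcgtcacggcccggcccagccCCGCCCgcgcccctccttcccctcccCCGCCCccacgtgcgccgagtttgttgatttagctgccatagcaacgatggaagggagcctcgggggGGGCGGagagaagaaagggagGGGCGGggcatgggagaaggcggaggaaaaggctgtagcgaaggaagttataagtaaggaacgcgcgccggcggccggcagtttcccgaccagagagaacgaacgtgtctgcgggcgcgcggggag
KLF9 (chr9:70414608-70414907, minus strand): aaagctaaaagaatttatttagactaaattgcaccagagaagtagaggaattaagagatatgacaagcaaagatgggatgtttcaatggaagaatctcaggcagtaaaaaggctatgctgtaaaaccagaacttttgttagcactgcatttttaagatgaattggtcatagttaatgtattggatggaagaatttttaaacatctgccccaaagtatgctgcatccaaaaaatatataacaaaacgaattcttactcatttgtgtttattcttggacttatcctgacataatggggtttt
KLF11 (chr2:10043971-10044270, plus strand): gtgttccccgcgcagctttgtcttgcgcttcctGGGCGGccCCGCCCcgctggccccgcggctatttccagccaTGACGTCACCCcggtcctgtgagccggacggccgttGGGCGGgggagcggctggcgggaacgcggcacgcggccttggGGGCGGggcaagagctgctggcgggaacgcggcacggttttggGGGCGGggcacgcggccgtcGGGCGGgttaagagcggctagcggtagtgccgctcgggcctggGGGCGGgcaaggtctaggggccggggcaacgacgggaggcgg
KLF2 had 6 GC boxes and 1 MEF2 site, a sequence bound by the MEF2 factors that act on KLF2 and KLF4 in endothelium. KLF4 had 4 GC boxes, and KLF9 had none of the motifs and a GC content of 32.7%, against a median of 58.7% over all windows. The second start of KLF11 had 7 GC boxes, 1 CACCC box and 2 core sites, which together form 1 full cAMP response element (TGACGTCA). Over all 13 windows of the 8 genes, 8 held a GC box, against 45.0% of 35116 windows in the RefSeq table, and 7 held a CACCC box, against 59.9%. A core site lay in 2 of the 13 windows, against 7.98% of all windows. A MEF2 site was found in 1 window, against 2.99% of all. The interferon response and NF-kB motifs, present in 3.57% and 5.91% of all windows, were in 0 of the 13. A match is only a description of the letters in these windows.

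The deposited unit is TPM, which is a level per gene length with a fixed sum in every library, so it keeps no sequencing depth and depth is unknown. Between 23162 and 25910 genes had a TPM above 0 per library. SH3PXD2A-AS1, the targeted RNA, averaged 0.740 ± 0.225 TPM in the controls against 0.497 ± 0.163 TPM after knockdown (SD, n = 3), with overlapping groups (exact two-sided permutation test, p = 0.2, where 0.1 is the smallest possible). The share of TPM from mitochondrially encoded genes moved with the groups, at 10.7% to 10.9% in the controls against 7.20% to 7.40% after knockdown. Its part in the KLF results was not tested, and neither was that of the marker levels that follow. Epithelial markers were present, with all 7 above a mean of 1 TPM, of which 4 rose, and a summed level of 3233 to 3330 TPM in the controls and 3620 to 3707 TPM after knockdown. Of 5 leukocyte markers 1 (CD68, also a lysosomal gene of other cells) reached 1 TPM, with 36.6 to 42.2 TPM in control and 56.1 to 60.3 TPM in knockdown libraries, while PTPRC was at 0 in all 6. The summed leukocyte list ranged from 36.7 to 42.2 TPM in control and from 56.3 to 60.4 TPM in knockdown libraries. Endothelial markers summed to 1.18 to 1.93 and 1.38 to 1.85 TPM, and fibroblast and muscle markers to 29.3 to 32.7 and 31.4 to 37.2 TPM. In bulk RNA, fewer cells of a kind and less RNA per cell cannot be told apart.

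Of the 10 KLF genes, 7 rose in knockdown cells and 0 fell in a limma test over all 15755 genes with a mean of at least 1 TPM, with a gene called at a Benjamini-Hochberg adjusted p under 0.05. All 10 passed that level filter. The same test called a rise for 11.3% and a fall for 3.47% of all genes tested. Because the members were picked with this contrast known, nothing is read from the difference between these shares. In 7 genes every knockdown library stood above every control library, which held for 26.8% of all genes. Counted in both directions, 36.5% of all genes had groups that did not overlap. In 1 gene (KLF9) every knockdown library stood below, which held for 9.66% of all genes, and in 2 genes the groups overlapped. The median log2 fold change of the 10 was 0.49, beside 0.08 over all genes tested, and 9 of the 10 values were above 0, as were 64.6% of all. Every fold change below is a difference in mean log2(TPM + 1), knockdown less control, a scale that understates changes of low genes. Intervals are for 1 gene at a time. They are not adjusted for the number of genes tested or for the choice of members, so an interval without 0 is not a call.

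**Figure D1:**
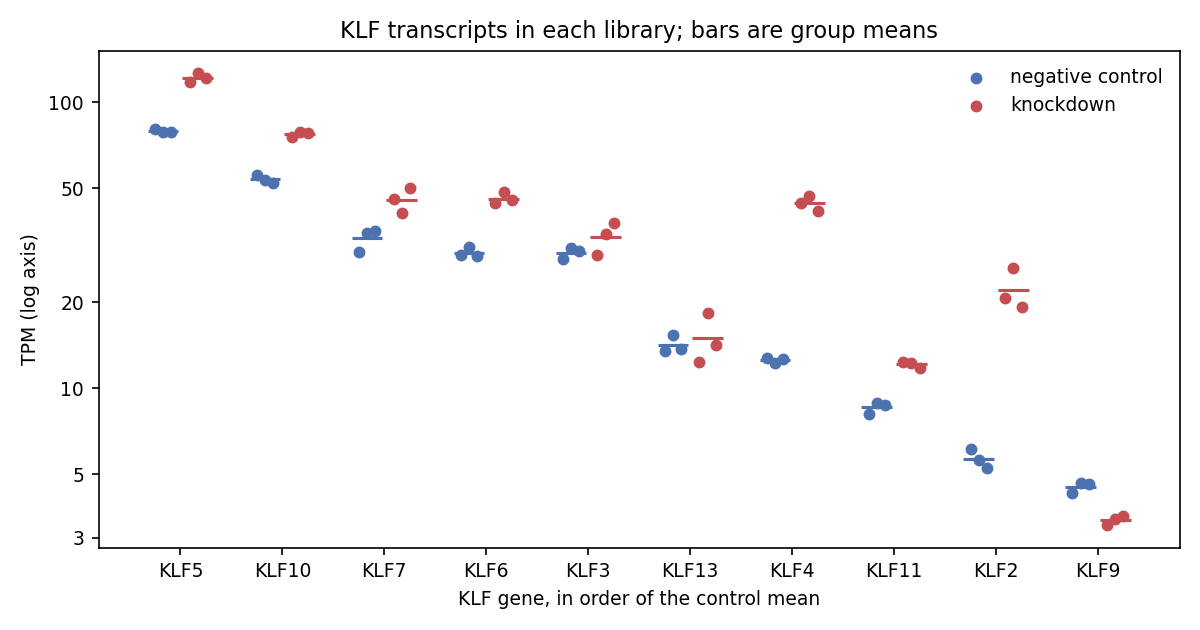
TPM of each KLF gene in the 6 libraries on a log axis, in order of the control mean, with 3 control points in blue and 3 knockdown points in red and a bar at each group mean. KLF2 and KLF4 show the widest gaps, the points of KLF3 and KLF13 overlap between groups, and KLF9 lies lower in all 3 knockdown libraries.

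Among the activators, KLF2 and KLF4 had the highest fold changes of the family. KLF2, a factor of quiescent endothelium and lymphocytes, stood at 6.13, 5.63 and 5.28 TPM in the control libraries, replicate 1 first, against 20.67, 26.37 and 19.24 TPM in the knockdown libraries. All knockdown libraries were several times above all control libraries, and knockdown replicate 2 was the highest. Its mean went from 5.68 ± 0.427 to 22.1 ± 3.77 TPM (SD, n = 3), a ratio of 3.89, with a log2 fold change of 1.78 (SE 0.13). KLF4, a factor of epithelial differentiation and of reprogramming to pluripotency, stood at 12.75, 12.26 and 12.68 TPM in control and at 44.33, 47.12 and 41.62 TPM in knockdown libraries. The control libraries lay close together, far below the lowest knockdown library. Its mean went from 12.6 ± 0.265 to 44.4 ± 2.75 TPM, a ratio of 3.53, with a log2 fold change of 1.74 (SE 0.06). Only 60 of the 15755 tested genes had a higher log2 fold change than KLF2 and 67 a higher one than KLF4. These were the 2 KLF genes that rose with a log2 fold change of at least 1, which 1.02% of all tested genes did.

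The level of KLF2 relative to KLF4 within a library changed little beside the rise of both. KLF2 stood at 0.481, 0.459 and 0.416 times the TPM of KLF4 in control and at 0.466, 0.560 and 0.462 times in knockdown libraries, so the ratios overlapped between groups. Relative to KLF5, KLF4 went from 0.158, 0.156 and 0.161 in control to 0.378, 0.374 and 0.342 in knockdown libraries. The ratio of KLF4 to KLF5 TPM was thus higher in every knockdown library than in any control library, although KLF5 itself also stood higher. It restates the RNA fold changes of 2 chosen genes, and these data hold no protein levels.

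KLF5 and KLF6 rose by like amounts, and KLF7 rose with less certainty. KLF5, a growth-linked factor of epithelial cells, had 80.52, 78.67 and 78.78 TPM in control and 117.30, 126.08 and 121.69 TPM in knockdown libraries. It was the most abundant KLF message in every library, and the groups were well apart. Its log2 fold change was 0.61 (SE 0.04), from 79.3 ± 1.04 to 122 ± 4.39 TPM. KLF6, a factor induced by tissue injury and known as a candidate tumour suppressor, had 29.20, 31.26 and 28.95 TPM in control and 44.34, 48.43 and 45.33 TPM in knockdown libraries. The lowest knockdown library stood well above the highest control library, and the log2 fold change was 0.61 (SE 0.06). KLF7, best known from neurons, had 29.89, 34.86 and 35.57 TPM in control and 45.95, 41.03 and 49.98 TPM in knockdown libraries. Its groups did not overlap, but the spread within each was wider, and the log2 fold change was 0.44 (SE 0.10). The call for KLF7 was lost in 11 of 14 alternative analyses, among them 5 of the 6 that left out 1 library, with log2 fold changes from 0.35 to 0.51 over all 14.

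The factors that bind SIN3A were divided. KLF10, a gene induced early by TGF-beta, had 55.70, 53.38 and 51.96 TPM in control and 75.55, 78.95 and 78.29 TPM in knockdown libraries. The groups were well apart, with a log2 fold change of 0.52 (SE 0.05). KLF11, its closest relative and also induced by TGF-beta, had 8.13, 8.87 and 8.75 TPM in control and 12.37, 12.27 and 11.74 TPM in knockdown libraries, with a log2 fold change of 0.45 (SE 0.07). KLF10 and KLF11 thus had like fold changes at very different levels, 77.6 ± 1.80 and 12.1 ± 0.339 TPM in knockdown cells. KLF9, a gene responsive to glucocorticoid and thyroid hormone, went the other way, with 4.32, 4.65 and 4.61 TPM in control and 3.32, 3.50 and 3.58 TPM in knockdown libraries. Every knockdown library was below every control library, but the gene did not pass the test (log2 fold change -0.31, SE 0.10, 95% interval -0.53 to -0.08). KLF13, first known as a lymphocyte factor, had 13.46, 15.41 and 13.66 TPM in control and 12.37, 18.28 and 14.17 TPM in knockdown libraries. The knockdown libraries held both the lowest and the highest value, and the log2 fold change was 0.06 (SE 0.14, 95% interval -0.27 to 0.39).

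KLF3, the CtBP-binding repressor, did not pass the test. It had 28.27, 30.83 and 30.15 TPM in control and 29.22, 34.60 and 37.72 TPM in knockdown libraries. Knockdown replicate 1 lay within the control range and the other 2 above it, giving a log2 fold change of 0.17 (SE 0.10, 95% interval -0.06 to 0.40). KLF3-AS1, a noncoding RNA read from the opposite strand and named here after its values were seen, shares 266 exon bases with KLF3 in GENCODE 29 (GRCh38, chromosome 4, 38612701 to 38664883). It had 0.55, 1.07 and 0.82 TPM in control and 1.59, 4.17 and 4.80 TPM in knockdown libraries. Its groups did not overlap, and knockdown replicate 1 lay far below the other 2 (log2 fold change 1.24, SE 0.32, limma adjusted p = 0.0451). That call was lost in 10 of 13 alternative analyses. The sources used here do not say whether counting kept the strand, so reads of KLF3 and KLF3-AS1 in the shared bases may not have been told apart. KLF11 also shares 416 exon bases with an opposite-strand RNA, AC104794.4, which stood between 0 and 4.35 TPM. KLF7-IT1, inside an intron of KLF7 on the same strand, had 4.07, 2.49 and 2.54 TPM in control and 1.57, 1.92 and 1.79 TPM in knockdown libraries. It lay lower in each knockdown library but did not pass the test (log2 fold change -0.53, SE 0.18, limma adjusted p = 0.103).

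The calls for KLF7 and KLF9 depended on how the libraries were scaled. Median ratio scaling, quantile normalization and rescaling without mitochondrial DNA and ribosomal protein genes moved the median over the whole table to -0.0020, -0.014 and 0.011, so each took the shared shift of 0.08 out. Under each of these 3 scalings, 6 KLF genes rose and 1 fell. KLF2, KLF4, KLF5, KLF6, KLF10 and KLF11 kept their calls, KLF7 lost its call, and KLF9 gained one, with log2 fold changes of -0.38, -0.41 and -0.37. KLF13 was not called under any of them, but its sign turned, with -0.032, -0.036 and -0.017. Rises were then called for 6.42%, 6.35% and 6.87% of all genes tested and falls for 6.32%, 6.22% and 5.51%. The calls for KLF2, KLF4, KLF5, KLF6, KLF10 and KLF11 also held in each of the 14 alternatives run, the lowest values being 1.65, 1.65, 0.52, 0.52, 0.43 and 0.36. KLF9, which the filter at 5 TPM drops, was called in 4 of its 13 alternatives. None of the 6 that left out 1 library called it.

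**Figure D2:**
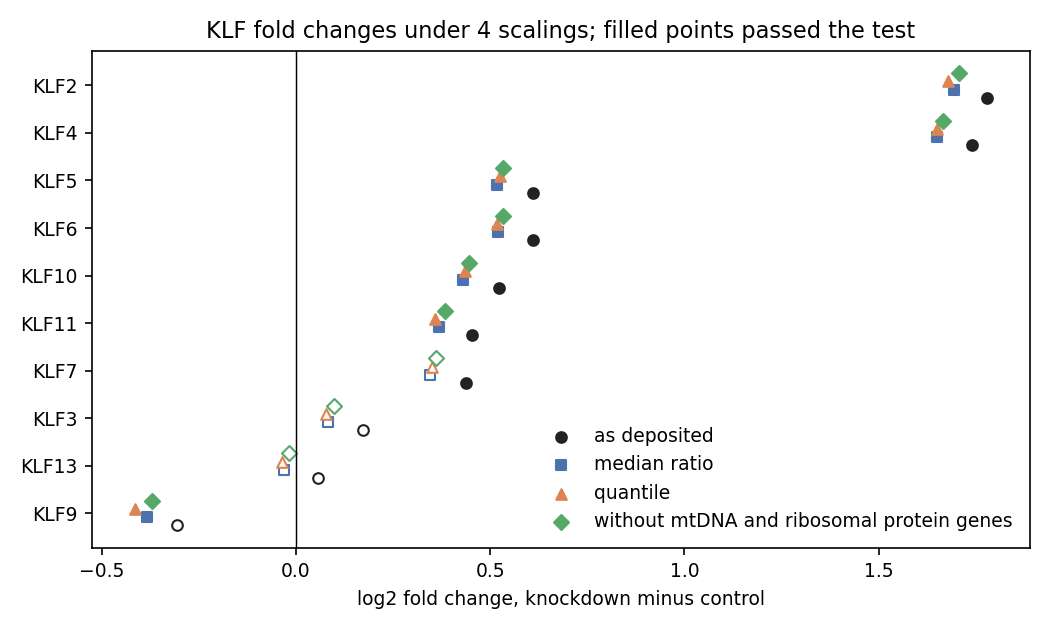
Log2 fold change of each KLF gene (horizontal axis, knockdown minus control) with TPM as deposited and under 3 other scalings, with filled symbols for an adjusted p under 0.05. The other scalings move all genes a little to the left, which empties the symbols of KLF7, fills those of KLF9 and puts KLF13 on the other side of 0.

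The order of the KLF messages changed in the middle of the range. By mean TPM, a level per length, control cells ranked KLF5, KLF10, KLF7, KLF6, KLF3, KLF13, KLF4, KLF11, KLF2 and KLF9 from high to low. KLF7 and KLF6, and KLF6 and KLF3, were neighbours whose libraries overlapped in range. Knockdown cells ranked KLF5, KLF10, KLF6, KLF7, KLF4, KLF3, KLF2, KLF13, KLF11 and KLF9, where KLF6 and KLF7, KLF7 and KLF4, and KLF13 and KLF11 overlapped or met. KLF4 moved from rank 7 to rank 5 and KLF2 from rank 9 to rank 7. Together the 10 genes summed to 272 ± 3.85 TPM in the controls and to 422 ± 15.7 TPM after knockdown (SD, n = 3). KLF4 made up 4.63% of that sum in control and 10.5% in knockdown cells, and KLF2 2.09% and 5.24%. KLF5 held 29.2% and 28.8%. The 5 activators summed to 161 ± 2.13 and 280 ± 8.39 TPM, and the 4 SIN3A-binding members to 81.0 ± 1.76 and 108 ± 4.70 TPM.

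The remaining KLF genes and the SP genes give values outside the chosen set. Only the SP genes were listed by name alone. The remaining KLF genes are those left after the members were chosen by level and fold change. Their counts thus depend on that choice. Of the other 8 KLF genes, 3 reached a mean of 1 TPM, and 0 rose and 1 fell. KLF15, a factor of metabolic tissues, had 3.65, 3.75 and 3.80 TPM in control and 2.51, 2.58 and 2.72 TPM in knockdown libraries. All knockdown libraries were lower (log2 fold change -0.39, SE 0.10, limma adjusted p = 0.0474), but the call was lost in 8 of 13 alternatives, including each of the 6 that left out 1 library. KLF16, another SIN3A-binding factor, had 24.89, 21.99 and 27.32 TPM in control and 38.91, 37.93 and 26.71 TPM in knockdown libraries. Knockdown replicate 3 lay inside the control range, and the gene did not pass the test (log2 fold change 0.45, SE 0.15, limma adjusted p = 0.101). Without knockdown replicate 3 it did, with a log2 fold change of 0.62. KLF12, a CtBP-binding repressor, had 2.58 ± 0.299 and 3.36 ± 0.126 TPM (log2 fold change 0.29, SE 0.12, limma adjusted p = 0.153). KLF8 stood between 0.48 and 0.76 TPM, and KLF1, KLF14, KLF17 and KLF18 at or below 0.04 TPM in every library.

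Over all 18 KLF genes, 13 were tested, of which 7 rose and 1 fell, with a median log2 fold change of 0.45. All 5 tested activators rose, beside 11.3% of all genes tested, but all 5 are among the 10 genes chosen for their fold changes, and the call for KLF7 was lost in 11 of 14 alternatives. Of the 5 tested SIN3A-binding genes 2 rose, both also chosen members, and of the 2 tested CtBP-binding genes 0 rose and 0 fell, at log2 fold changes of 0.17 and 0.29. Whether these subgroups differ from each other was not tested. Among 454 other tested genes with a C2H2 zinc finger in the table's own Pfam annotations, 8.81% rose and 0.441% fell, with a median log2 fold change of 0.10.

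Of the SP1 to SP9 genes, 5 were tested, and 1 rose. SP7 was not analysed here. SP6, also called epiprofin and active in skin and tooth epithelium, had 8.58, 8.44 and 8.68 TPM in control and 12.39, 12.05 and 12.75 TPM in knockdown libraries. The libraries of each group lay close together and far from the other group (log2 fold change 0.49, SE 0.07, limma adjusted p = 0.00522). That call held in each of 14 alternatives. SP1 and SP3, the widely expressed members that share GC boxes with the KLF proteins, did not pass the test, with 38.0 ± 1.35 and 41.3 ± 1.83 TPM for SP1 (95% interval of the log2 fold change -0.02 to 0.25) and 45.5 ± 1.76 and 48.7 ± 3.49 TPM for SP3 (-0.06 to 0.25). SP2 had a log2 fold change of 0.27 (limma adjusted p = 0.0876) and SP4 of 0.08 (limma adjusted p = 0.724), the latter turning to -0.027 under quantile normalization.

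**Figure D3:**
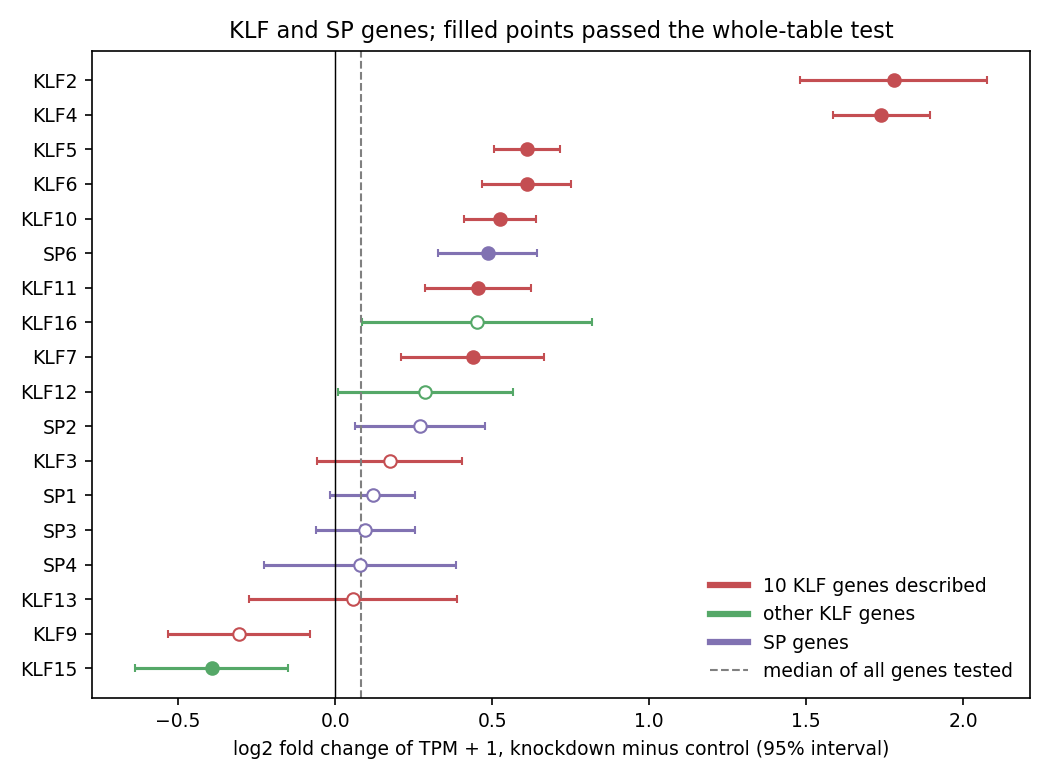
Log2 fold change of TPM + 1 (knockdown minus control) of the 18 tested KLF and SP genes with 95% intervals from limma, filled where the whole-table adjusted p was under 0.05, and a dashed line at the median of all tested genes (0.08). The intervals are per gene and not adjusted. KLF2 and KLF4 lie at 1.78 and 1.74, apart from the other 16, which range from -0.39 to 0.61.

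Genes linked to KLF factors were listed from general knowledge of the family, with earlier results of these data known. The counts of each list stand beside the 11.3% of all genes tested that rose and the 3.47% that fell. Over these 3 lists and that of reported targets, 16 genes rose and 2 fell, against 11 and 6 after median ratio scaling. Of 14 cofactors 2 rose (14.3%) and 0 fell (median log2 fold change 0.08). SIN3B, a scaffold of the histone deacetylase complex, rose from 37.9 ± 1.61 to 47.7 ± 1.51 TPM (log2 fold change 0.32, SE 0.05, limma adjusted p = 0.0113). Its paralogue SIN3A, the partner of KLF9, KLF10, KLF11 and KLF13, had 22.05, 24.76 and 23.93 TPM in control and 17.96, 20.62 and 20.17 TPM in knockdown libraries. All knockdown libraries of SIN3A lay below the controls, but the gene did not pass the test (log2 fold change -0.26, SE 0.08, limma adjusted p = 0.0725). It did under each of the 3 other scalings, with log2 fold changes of -0.35 after median ratio scaling, -0.34 after quantile normalization and -0.33 after rescaling. The acetyltransferase gene EP300 stood at 8.67 ± 1.60 and 10.5 ± 0.413 TPM (limma adjusted p = 0.213).

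Of 7 ubiquitin ligase genes that act on KLF proteins, 1 rose and 0 fell (median log2 fold change 0.18). SMURF1, a ligase reported for KLF2, rose from 26.2 ± 0.498 to 35.9 ± 1.47 TPM (log2 fold change 0.44, SE 0.05, limma adjusted p = 0.00367). VHL, FBXO32 and FBXW7, reported to act on KLF4 or KLF5, were not called, at log2 fold changes of 0.25, 0.18 and 0.30 (limma adjusted p = 0.0822, 0.116 and 0.195). FBXW7 was called without knockdown replicate 1. Of 15 tested upstream factors 3 rose and 0 fell (median 0.18). HDAC7, which restrains MEF2 factors, rose from 86.2 ± 1.38 to 115 ± 6.06 TPM (log2 fold change 0.41, SE 0.05, limma adjusted p = 0.00375). MEF2D, which with its relatives activates KLF2 and KLF4, rose from 67.0 ± 4.04 to 82.9 ± 3.92 TPM, and EGR1, an immediate-early factor, from 222 ± 9.20 to 253 ± 10.4 TPM (limma adjusted p = 0.023 and 0.0466). The call for MEF2D was lost in 9 of 14 alternatives and that for EGR1 in 12 of 14, both under each of the 3 other scalings. The glucocorticoid receptor gene NR3C1, upstream of KLF9, stood at 23.4 ± 3.30 and 29.3 ± 2.14 TPM (limma adjusted p = 0.112).

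Of 22 tested genes reported as KLF targets, 10 rose and 2 fell, with a median log2 fold change of 0.21. Several of them were known to differ here before they were listed, so their share of 45.5% rising is not independent of these data. ATF3, reported as induced by KLF6, rose from 154 ± 8.11 to 296 ± 17.8 TPM (log2 fold change 0.94, SE 0.06, limma adjusted p = 0.000428). PLAU, the urokinase gene and a reported KLF6 target, rose from 20.1 ± 0.748 to 31.0 ± 0.712 TPM (limma adjusted p = 0.00136). CCL5, a chemokine gene that KLF13 activates in T cells, had 0.48, 0.80 and 1.14 TPM in control and 8.46, 7.04 and 11.23 TPM in knockdown libraries. CCL5 rose (limma adjusted p = 0.000874), while KLF13 itself did not pass the test. CCNB1, which encodes cyclin B1 and which KLF4 represses and KLF5 activates in other cells, fell from 188 ± 5.39 to 114 ± 5.57 TPM (log2 fold change -0.71, SE 0.05, limma adjusted p = 0.000538).

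**Figure D4:**
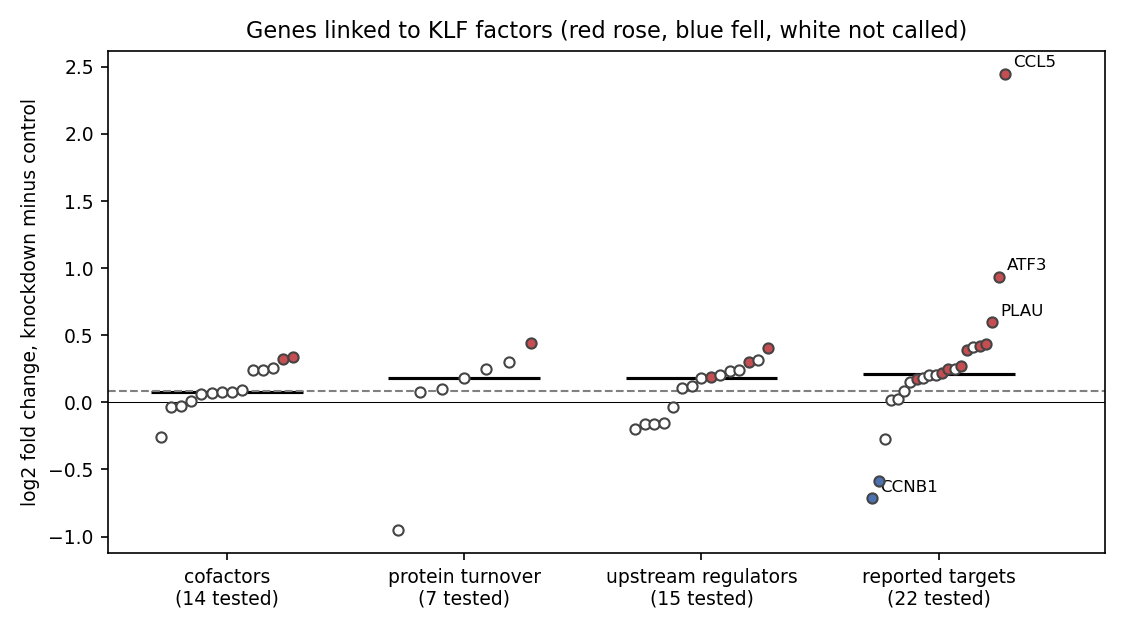
Log2 fold change (vertical axis, knockdown minus control) of each tested gene in the 4 lists linked to KLF factors, with a bar at each list's median and a dashed line at the median of all genes tested (0.08). The list medians lie at 0.08, 0.18, 0.18 and 0.21, and CCL5, ATF3, PLAU and CCNB1 are the 4 named targets.

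The 10 members lie apart in the genome, with KLF7 and KLF11 both on chromosome 2 and KLF4 and KLF9 both on chromosome 9. Their neighbours were looked up in GENCODE 29 (GRCh38). On the higher side of KLF5 the nearest tested protein-coding gene is KLF12, another KLF gene, 608547 bases away. The 20 nearest tested protein-coding genes, 1 on each side of each member, centred on a median log2 fold change of 0.03. Of these, AKR1E2 beside KLF6 and GRHL1 beside KLF11 rose, and RRM2 beside KLF11 fell (limma adjusted p = 0.0453, 0.0217 and 0.0427). Beside KLF2 (chromosome 19, 16324817 to 16327874, plus strand) lie AP1M1 and EPS15L1, at log2 fold changes of 0.05 and 0.14. Beside KLF4 (chromosome 9, 107484852 to 107490482, minus strand) lies RAD23B, at 0.14. None of these 3 neighbours passed the test (limma adjusted p = 0.724, 0.179 and 0.19). The 3′ untranslated regions of the 10 genes, from the longest coding transcript of each in GENCODE 29, had a median length of 2754 bases, against 1300 bases over 12044 tested genes with a value. AUUUA pentamers (ATTTA in the transcript sequence), a core of AU-rich elements that can shorten the life of a message, numbered 2.37 per kilobase in the median member and 1.66 in the median gene. Among the members, KLF2 had 3.56 per kilobase in 843 bases and KLF13 had 0.893 per kilobase in 5600 bases.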

How the data were processed

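RNA with poly(A) tails was sequenced from 6 NCI-H292 libraries, 3 with a knockdown of SH3PXD2A-AS1 and 3 negative controls. The authors deposited 1 table of TPM values per gene and library, with gene lengths. The submitters' processing notes name fastp, HISAT and RSEM, without versions or order. They also name the mouse build GRCm38.p5, while 58883 of the 60027 gene IDs belong to human Ensembl. Which build lies behind the values is unsettled, so positions were taken from GENCODE 29 by gene ID. Each TPM column was assigned by its group name and number.

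Genes with a mean of at least 1 TPM (15755) entered a linear model in limma 3.58.1 under R 4.3.3, on the log2 of TPM + 1, with trended prior variance and no covariates. Two-sided p-values were adjusted by Benjamini-Hochberg over these genes. SH3PXD2A-AS1 was compared by an exact permutation test. The model was checked on simulated data. Members and gene lists were chosen with earlier results of these data known. Named are all members, other KLF and SP genes with a mean of at least 1 TPM, and up to 4 genes with the smallest p of each other list. Genes overlapping or beside a member, the KLF and SP genes at lower levels, and BTRC were added after their values were seen. The alternatives tried were another pseudocount (0.1), no filter or one at 5 TPM, 3 scalings, untrended variance, a replicate block and the removal of single libraries. SP7 and 1 upstream factor were not analysed here, and values of some genes in the lists or beside a member are not reported here.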

Additional observations from a re-analysis of the deposited data

How the results depend on the processing

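The number of KLF members called was 7, and 6 or 7 under each of the 14 alternatives, but not always the same genes. Under the 3 scalings and with untrended variance, 6 rose and 1 fell, with KLF9 called and KLF7 not. The count over all genes moved from 2327 to 1475 with no filter and to 1466 with the replicate number as a block, and lay between 1152 and 1633 when 1 library was left out, which leaves fewer samples. It was more than 1.5 times lower without any one of them except knockdown replicate 1. KLF9 was called lower under the 3 scalings and also, at -0.31, with a prior spread without trend. Of the other KLF and SP genes, 2 were called, against 1 with a filter at 5 TPM, which drops KLF15, 1 with the replicate block, and 1 to 2 with 1 library left out. The 2 called with no filter (SP6 and SP8) and without knockdown replicate 3 (SP6 and KLF16) did not include KLF15. With the replicate block 6 KLF members were called. Deviations of same-numbered libraries correlated at 0.017, -0.012 and 0.045, so the numbers were not taken to pair them. KLF13 turned sign at -0.032, -0.036 and -0.017 under the 3 scalings and ranged from -0.089 to 0.17 with 1 library left out, the lowest without knockdown replicate 2, and SP4 stood at -0.027 under quantile normalization. The causes of these moves beyond sample and gene numbers were not tested. Depth is unknown, so how far it limits KLF9, KLF12 and KLF15, all under 5 TPM, cannot be given.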

Other observations

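Outside the tested genes, SP8, chosen after its values were seen, had 0.33, 0.20 and 0.38 TPM in control and 0.97, 1.18 and 1.49 TPM in knockdown libraries, and with no level filter it passed the test (limma adjusted p = 0.0305). SP5 stood between 0.20 and 0.46 TPM in 5 libraries and at 2.93 TPM in knockdown replicate 2. BTRC, a ubiquitin ligase gene in the turnover list, was also chosen after its values were seen. It stood between 2.92 and 3.60 TPM in 5 libraries and at 31.63 TPM in control replicate 3. Its log2 fold change of -0.95 (SE 0.77) rests on that library.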
